A study of Mus musculus with 54 samples.

Results

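The 40 genes described here are a list of mitosis and kinetochore genes, given by symbol and looked up in the count table of a mouse study. All 40 were found among its 23154 genes. The study profiled single haematopoietic cells of C57BL/6 mice aged 8-10 weeks, either sorted from steady state marrow, spleen or both, or collected 1, 3, 5 and 7 days after transplantation. A modified Smart-seq2 protocol, which primes full cDNA from 1 cell at a time, was used to count the 3' ends of mRNA in 54 libraries of several cells each. The labels used here name neither the donor cells, the conditioning of the recipients nor the animals behind each library, so p-values measured the spread between libraries, which may be technical.

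The authors' annotation covered 2301 of 2879 cells, 1270 from steady state and 1031 transplanted. Stem cell gates, called iHSC in the labels, were LT_HSC, Fraction I, Fraction III, ESLAM and ESLAMSK, with 305 cells in 12 libraries. Progenitor gates, called iMPP, were ST_HSC, LMPP, MPP1, MPP2, MPP3, MPP4, Fraction II, HPC2 and HPC3, with 508 cells in 17 libraries. The other 14 sorted populations were the committed progenitors CMP, GMP, MEP and CLP, and the mature or maturing EryA, EryB, MK, Granulocyte, Monocyte, Macrophage, B cell, NK cell, CD4T and CD8T. Transplanted cells with 1 known collection day numbered 61 in 3 libraries at day 1, 125 in 3 at day 3, 336 in 7 at day 5 and 389 in 10 at day 7. The other 120 transplanted cells came from libraries that pooled days. A cell held 20013 to 1943315 counts, with a median of 203971. No pair of cells had identical counts, and cell names carry no barcode sequence to compare. The labels of L4 (iMPP1 alone) and L49 differ from the annotation, which gives L4 as ST_HSC and EryB and places Fraction II and HPC2 in L49. L49 and L55 hold both steady state and transplanted cells. Day 1 and day 3 libraries are numbered L79 to L89 and most day 5 and day 7 libraries L47 to L72, so collection day and library series cannot be told apart.

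Mitosis begins when Cdk1 bound to cyclins A and B, helped by the Plk1 and Aurora kinases, drives chromosome condensation and spindle assembly. Kinetochores, built on centromeres, attach chromosomes to spindle microtubules, and the checkpoint proteins Bub1, Bub1b, Bub3, Mad2l1 and Ttk hold back Cdc20 and the anaphase promoting complex until attachment is complete. Transcripts of most of these genes accumulate in the G2 phase and mitosis, and adult haematopoietic stem cells are known for being largely quiescent.

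Many genes expressed late in the cell cycle share a promoter element, the cell cycle genes homology region (CHR), which binds DREAM and B-Myb complexes, together with CCAAT boxes bound by NF-Y. Windows from 250 bases before to 50 bases after the RefSeq start site (GRCm38.p6) were matched for 34 of the 40 members, Sgol1 under its RefSeq symbol Sgo1. No window was matched for Aurkb, Ccna2, Incenp, Kif20a, Spc24 and Tpx2. CHR letters (TTTGAA or TTTAAA, either strand; TTTAAA is its own reverse complement) occurred in 28 of 34 members (82.4%), and in 30.6% of the 27025 genes with a window. CCAAT on either strand occurred in 27 members (79.4%), and in 41.1% of all genes. Both occurred in 25 members (73.5%), and in 12.2% of all genes. The letters of both motifs overlapped in 1 place among the members' windows. CHR letters were absent from the windows of Bub1, Mad2l1, Nuf2, Nusap1, Sgol1 and Tacc3, and 4 members had neither motif. A letter match is a description and not a measured site.

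The windows below show 3 members with both motifs close to the start site (Cdc20, Cdk1 and Plk1), a member whose counts are among the 3 highest of the list (Ube2c), the checkpoint gene that varied least (Bub3) and a member with neither motif (Nusap1). Capitals mark CCAAT and CHR letters on either strand, and all are written 5' to 3' on the gene's strand. They lie at chr4:118437294-118437593 (minus strand, Cdc20), chr10:69352863-69353162 (minus, Cdk1), chr7:122159185-122159484 (plus, Plk1), chr2:164769679-164769978 (plus, Ube2c), chr7:131560120-131560419 (plus, Bub3) and chr2:119618048-119618347 (plus, Nusap1).
Cdc20: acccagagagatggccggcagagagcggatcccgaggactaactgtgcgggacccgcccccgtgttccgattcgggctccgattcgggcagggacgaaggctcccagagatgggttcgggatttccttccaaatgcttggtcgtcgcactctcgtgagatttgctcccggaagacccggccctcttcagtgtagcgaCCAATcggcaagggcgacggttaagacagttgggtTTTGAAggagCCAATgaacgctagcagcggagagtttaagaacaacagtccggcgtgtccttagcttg
Cdk1: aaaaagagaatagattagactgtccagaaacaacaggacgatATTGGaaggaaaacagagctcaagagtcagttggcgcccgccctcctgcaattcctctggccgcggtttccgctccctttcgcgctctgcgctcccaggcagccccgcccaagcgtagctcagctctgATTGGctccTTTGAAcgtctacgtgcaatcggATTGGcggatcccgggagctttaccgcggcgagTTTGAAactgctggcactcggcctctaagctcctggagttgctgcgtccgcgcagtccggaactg
Plk1: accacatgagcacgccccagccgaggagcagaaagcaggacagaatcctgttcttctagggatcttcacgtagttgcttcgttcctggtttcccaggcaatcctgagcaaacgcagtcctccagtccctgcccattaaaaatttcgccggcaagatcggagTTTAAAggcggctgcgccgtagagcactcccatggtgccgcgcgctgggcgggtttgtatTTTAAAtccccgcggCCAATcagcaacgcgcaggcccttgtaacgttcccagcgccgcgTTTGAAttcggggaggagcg
Ube2c: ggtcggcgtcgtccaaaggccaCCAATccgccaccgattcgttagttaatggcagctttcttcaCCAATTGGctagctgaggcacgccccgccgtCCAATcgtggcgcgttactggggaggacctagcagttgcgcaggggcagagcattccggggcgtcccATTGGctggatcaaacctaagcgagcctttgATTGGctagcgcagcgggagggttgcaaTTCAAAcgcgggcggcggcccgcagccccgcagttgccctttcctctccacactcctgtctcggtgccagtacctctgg
Bub3: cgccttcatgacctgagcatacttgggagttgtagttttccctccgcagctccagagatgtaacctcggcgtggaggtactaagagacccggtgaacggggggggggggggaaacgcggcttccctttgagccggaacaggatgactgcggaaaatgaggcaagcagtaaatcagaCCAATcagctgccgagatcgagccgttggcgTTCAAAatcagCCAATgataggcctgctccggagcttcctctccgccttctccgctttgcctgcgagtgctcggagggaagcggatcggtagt
Nusap1: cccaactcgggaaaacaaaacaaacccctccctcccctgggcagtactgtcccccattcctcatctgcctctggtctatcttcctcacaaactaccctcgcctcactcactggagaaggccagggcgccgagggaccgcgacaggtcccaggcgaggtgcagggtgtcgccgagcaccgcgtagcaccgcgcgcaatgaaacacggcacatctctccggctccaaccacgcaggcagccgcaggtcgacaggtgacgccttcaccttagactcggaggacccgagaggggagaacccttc
Counted from the start site, CHR letters began at -18 in Cdc20, at -71 and -15 in Cdk1, at -29 in Ube2c and at -43 in Bub3.

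Each cell was scored by the summed counts of the 40 genes per 10000 counts of the cell, averaged over the cells of a library. Ube2c, Birc5 and Top2a together made 20.8% of the list's counts, and the list made 0.436% of all counts. In the iHSC gates the score averaged 6.64 ± 1.80 (SD, n = 12 libraries), between 3.91 and 10.2. In the iMPP gates it averaged 48.96 ± 16.9 (SD, n = 17), between 22.8 and 78.7, so the libraries of these classes did not overlap. ESLAM (4.63 ± 1.04, n = 2) and LT_HSC (4.78 ± 0.71, n = 2) were the lowest stem cell gates, and Fraction III (7.98 ± 1.77, n = 5) the highest. The Fraction I libraries lay above those of LT_HSC and ESLAM, and other neighbours in this order overlapped.

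Among progenitor gates the order ran from MPP4 (74.7 ± 4.66, n = 3) through HPC2 (60.5 ± 10.1, n = 3), MPP2 (57.2 ± 11.5, n = 3), HPC3 (54.4 ± 3.73, n = 3) and MPP3 (46.0 ± 17.3, n = 2) to LMPP (37.3 ± 0.54, n = 2), MPP1 (33.4 ± 4.41, n = 2) and ST_HSC (32.4 ± 11.8, n = 2). Fraction II stood lowest at 16.5 ± 8.81 (n = 2). Neighbours in this order from HPC2 to ST_HSC differed by less than their spread. By this mean over cells, EryA, an erythroid precursor gate, was the highest at 158 ± 11.1 (n = 2), followed by EryB at 92.3 ± 42.7 (n = 2). With the counts of a library pooled over its cells, the EryA libraries stood at 82.7 (L16) and 176 (L42) and the 3 MPP4 libraries between 80.8 and 85.5, so the order of EryA and MPP4 did not hold in L16. CMP (41.1) and GMP (40.1), with 1 library each, lay in the range of the progenitors, and MEP was lower at 25.2. Monocyte reached 45.9 ± 14.9, CLP 37.4 ± 23.7, Granulocyte 19.8 ± 9.89 and MK 18.2 ± 11.8 (n = 2 each), and the single Macrophage library 13.1. B cell, NK cell, CD4T and CD8T lay between 2.36 and 5.45, within or below the range of the stem cell gates.

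**Figure D1:**
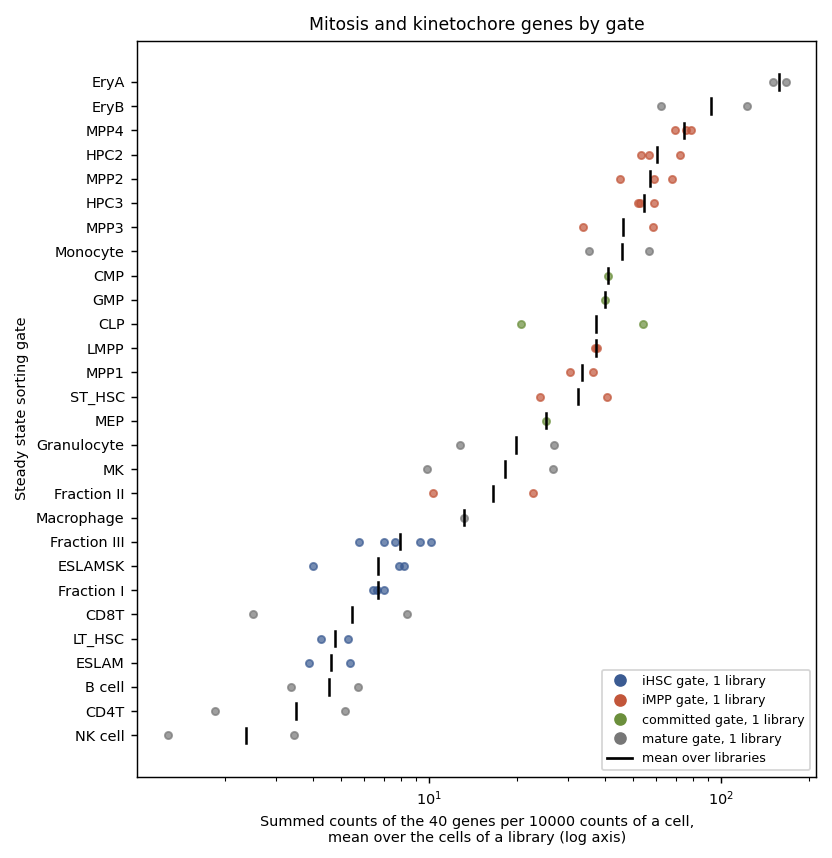
Summed counts of the 40 genes per 10000 counts of a cell (log axis) in each sorted population, with 1 point per library and a line at the mean. The iHSC libraries sit between 3.91 and 10.2, the progenitor gates mostly well above them with Fraction II lowest at a mean of 16.5, and EryA has the highest mean, 158.

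The same order did not hold cell by cell, because several gates mixed low and high cells. In MPP1 the median cell scored 8.87 while the top 18 of its 72 cells carried 78.3% of the gate's summed score. Fraction II (median 6.03, 80.1% in the top 12 of 49 cells) and CLP (9.14, 80.4% in the top 8 of 30) had the same shape. The median cell was at 41.1 in EryA and 39.96 in EryB, below MPP4, MPP3, HPC3 and MPP2, and the top 9 of 37 EryA cells carried 71.7% of the sum and the top 8 of 33 EryB cells 78.9%. MPP3 and MPP4 had medians of 50.7 and 82.4, with 41.7% of the sum in the top 19 of 76 cells and 46.3% in the top 20 of 78. Cells above 20 per 10000 made up 3.61% of iHSC cells (11 of 305), 20.4% in Fraction II, 33.3% in MPP1, 41.5% in ST_HSC and 82.1% in MPP4. No LT_HSC, NK cell or CD4T cell exceeded that level. The highest single cell, at 650 per 10000, was in EryA.

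**Figure D2:**
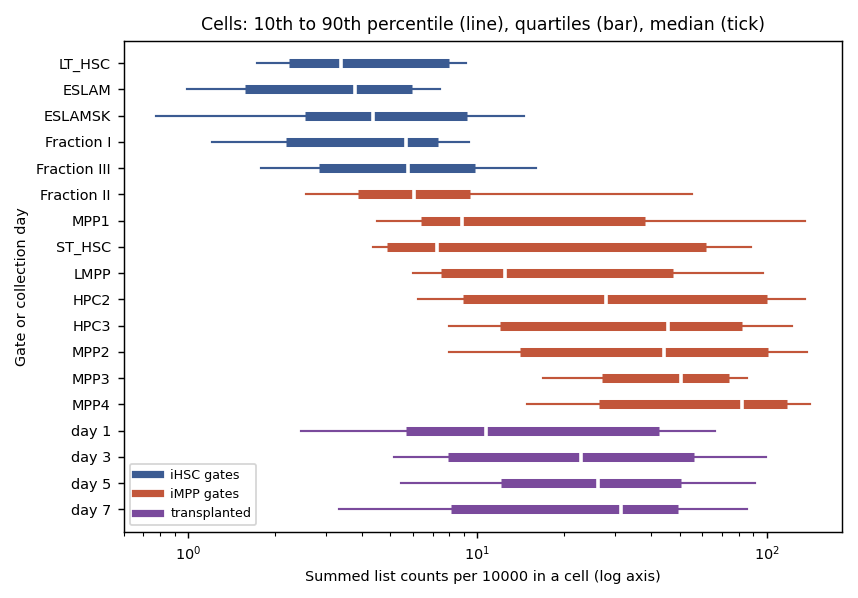
Distribution over cells of the summed list counts per 10000 (log axis) in the stem cell gates, progenitor gates and collection days, drawn as median (tick), quartiles (bar) and percentiles 10 to 90 (line). MPP1, ST_HSC and Fraction II have low medians of 8.87, 7.25 and 6.03 with a long upper tail, whereas MPP3 and MPP4 have medians of 50.7 and 82.4.

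In all, 2007 of 2301 annotated cells (87.2%) had 10 or more list genes detected, with 40 cells at exactly 10 and 28 at 9. This share differed with depth and also between libraries of like depth. Over the 12 iHSC libraries it ran from 6.67% to 100%, at 6.67% in L81 (median 66408 counts) and 68.4% in L76 (69596 counts). B cell library L3 gave 5.26% at 97139 counts and L54 71.4% at 100321. The share averaged 95.1% in ESLAM, whose cells held a median of 244998 counts, and 0% there once every cell was thinned to 20000 counts, a depth that all cells reached. In iHSC gates as a whole it was 74.6% before and 14.3% after thinning, and in iMPP gates 99.1% and 68.7%. NK cell libraries, with a median of 87872 counts, gave 30.1% and 2.50%, and B cell 38.3% and 2.38%. MPP3 (95.8%), Monocyte (87.9%), EryA (86.1%), HPC3 (84.7%) and Granulocyte (82.98%) had the highest thinned shares with at least 2 libraries. Granulocyte cells thus showed many list genes at a summed level of 19.8 per 10000. Bub3 was detected in 56.1% of the 294 cells below 10 list genes, more often than any other member, and Ttk in 1.36%, the least.

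CPM is the count scaled to 1e6 counts of the library, on edgeR TMM-scaled library sizes. By gene, the highest gate mean of CPM was in EryA for 24 members and in EryB for 9. The exceptions were Ttk and Cdc20 (MPP4), Mad2l1 and Aurkb (LMPP), Bub1b (GMP), Kif20a (HPC3) and Kif11 (MK). The place of Kif11 rests on 1 library, with 29.9 and 396 CPM in the 2 MK libraries against 150 and 167 in EryA. Ube2c, the E2 enzyme of the anaphase promoting complex, had 1827 and 3966 CPM in the 2 EryA libraries, 588 to 689 in MPP4 and 9.20 and 10.2 in LT_HSC. Bub3 ranged far less, with 274 and 677 CPM in EryA, 308 to 541 in MPP4 and 43.7 and 115 in LT_HSC. Over the 28 populations, most members varied together: Birc5, the survivin subunit of the chromosomal passenger complex, had a median Spearman rho of 0.88 with the other members and 0.98 with Cdca8, another subunit. The profile least like the rest was that of Kif20a, at a median of 0.39, followed by Kif23 at 0.65, both kinesins of the central spindle. These correlations are over gates that share libraries and differ in depth, and are given without a test.

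In edgeR fits over all gates, each gate outside the stem cell class was compared with the mean of the 5 iHSC gates, calling genes at a Benjamini-Hochberg adjusted p under 0.05 over 14745 genes. Many libraries hold several gates, which the edgeR fits do not model. The limma voom alternative takes the library as a block. Shares of all genes are given for the main edgeR fits alone. Fewer cells in mitosis and less mitotic RNA per cell cannot be told apart in these sums. Of the 40 members, 39 rose in MPP4 (2.83% of all genes rose there), 39 in HPC3 (3.19%), 37 in HPC2 (2.12%), 36 in MPP2 (2.67%), 36 in MPP3 (2.62%), 35 in LMPP (2.15%), 30 in ST_HSC (1.19%) and 23 in MPP1 (0.461%). Median member log2 changes ran from 2.98 in MPP1 to 4.33 in MPP4. Far fewer members rose in ST_HSC without L4, which like L49 has a label that differs from the annotation. Without L37, 4 rose in MPP1, and without L39, 20 rose in MPP3. With only the gate and the iHSC gates in the fit, 6, 16 and 0 members were called in ST_HSC, LMPP and MPP1, and limma voom with the library block called 36 in MPP1.

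Fraction II had no member called, as it had no gene called at all (0%), although the median log2 change of members was 2.08 and 32 members had an unadjusted p under 0.05. DESeq2 called 2 members there, limma voom with the library block 12, and the edgeR fit without a filter on low counts 8. Among committed gates, 31 members rose in CMP (1.21% of all genes), 27 in GMP (1.01%), 21 in MEP (1.84%) and 31 in CLP (5.05%), the last being 6 without L43 and 4 with at least 10 cells per sum. CMP, GMP and MEP had 1 library each and borrowed the spread of the others. With the gate and the iHSC gates alone in the fit, CMP, GMP, MEP and CLP gave 7, 3, 6 and 9.

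Among the maturing populations, 39 members rose in EryA (8.88% of all genes) and 37 in EryB (10.7%). In EryA the log2 change was 7.68 ± 0.62 (SE) for Ube2c, 6.65 ± 0.54 for the mitotic cyclin Ccnb2, 7.88 ± 0.86 for the spindle pole protein Aspm and 2.29 ± 0.41 for Bub3 (edgeR adjusted p from 4.22e-14 for Ube2c to 3.34e-05 for Bub3). In Monocyte 36 members rose (6.54%), in Granulocyte 34 (9.76%), in MK 27 (9.42%) and in Macrophage 15 (5.57%). The Granulocyte count was 7 without L5, and the MK count 6 without L55, which holds both origins. Macrophage had 1 library of 24 cells and borrowed the spread of the other gates. Its mean score was 13.1, but its median cell scored 2.26, below the 4.68 of the iHSC gates. Kif11, the kinesin that pushes spindle poles apart, had a log2 change of 5.34 ± 0.68 in MK. It read 29.9 CPM in 1 MK library and 396 in the other, so this change rests mostly on 1 library.

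Lymphocytes gave few calls and no common direction. In B cell, 4 members rose and 3 fell (9.79% of all genes were called). Cdk1, Top2a and Ccna2 fell by 3.20, 2.86 and 4.70 on the log2 scale, while Incenp, Mad2l1, Cenpa and Cdc20 rose by 2.62, 2.02, 1.60 and 2.23. Of these 4, Cenpa was high in both B cell libraries, at 152 and 183 CPM. The other rises each came from 1 library, with 3.54 and 65.9 CPM for Incenp, 2.83 and 101 for Mad2l1 and 1.42 and 49.1 for Cdc20. In NK cell, 4 fell (3.61%): Kif23 by 4.97, Top2a by 2.97, Cdk1 by 2.82 and Cenpa by 2.23. In CD4T no member was called (9.63% of all genes), with 2 at an unadjusted p under 0.05 and 2 called by DESeq2. In CD8T 1 member rose (5.82%), fewer than the share of all genes. It was the cytokinesis regulator Racgap1, by 4.59 ± 0.60. Racgap1 read 36.8 CPM in 1 CD8T library and 270 in the other, so this change rests mostly on 1 library. The highest iHSC library had 36.4 CPM in the fit with collection days. Leaving out 1 library left 1 (without L54) or 3 calls (without L3) in B cell, 1 in NK cell (without L3) and 0 in CD8T (without L53).

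Between gates of the same class no member was called. Over the 5 iHSC gates an edgeR F test called 0 of 40 (0.604% of all genes), with 15 at an unadjusted p under 0.05, 4 called by DESeq2, and 1 called without the ESLAMSK library L50. Over the 9 iMPP gates it also called 0 (2.26% of all genes), with 3 at an unadjusted p under 0.05, 0 by DESeq2 and 14 by limma voom with the library block.

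As classes, the iMPP gates had 39 of 40 members above the iHSC gates (5.05% of 10461 genes rose), with a median log2 change of 3.36 against -0.12 over all genes. Bub1b, the checkpoint kinase-like protein BubR1, lay between 1.54 and 7.06 CPM in the 12 iHSC libraries (median 2.75) and between 20.9 and 89.6 in the 17 iMPP libraries (median 60.4). The groups did not overlap, and the log2 change was 4.12 ± 0.35 (SE, edgeR adjusted p = 3.32e-10). Ube2c lay between 2.47 and 48.3 CPM in iHSC (median 19.4) and between 84.6 and 964 in iMPP (median 397), again without overlap, with a change of 4.36 ± 0.43 (adjusted p = 1.03e-08). For 16 of 40 members every iMPP library was above every iHSC library, Cenpe, Sgol1, Aurkb, Birc5, Hmmr and Prc1 among them. The share of all genes that separate in this way was not counted, so this number has no background to be read against. In the 5 libraries that hold both classes, the summed list level in iHSC and iMPP cells was 5.28 and 24.04 in L14, 10.2 and 38.97 in L49, 7.98 and 58.7 in L50, 7.02 and 34.3 in L51, and 4.28 and 22.8 in L74. It was higher in the iMPP cells of each of these libraries, and limma voom with the library block called 40 of 40 members. The share of all genes that voom called is not given here. Prc1, which bundles microtubules of the central spindle, changed by 3.40 ± 0.37, and Sgol1, the shugoshin that guards cohesion at centromeres, by 4.06 ± 0.45.

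All 7 kinetochore members, all 6 checkpoint and cohesion members, all 4 passenger complex subunits, all 7 of the group of cyclins, entry kinases and the mitotic entry factor Cdca3, both partners of the anaphase promoting complex, all 7 spindle assembly members and both mitotic chromosome genes rose in iMPP. Of the 5 central spindle members, Kif20a did not pass (1.11 ± 0.75, adjusted p = 0.394). Bub3, shared by the checkpoint and other cell functions, rose least among those called, by 1.18 ± 0.23 (adjusted p = 0.000711), from 53.2 to 209 CPM in iHSC (median 104) to 132 to 612 in iMPP (median 245), with overlap. The 6 members without CHR letters in their window were among those that rose, as was Bub3, which has them. Summed HSC marker genes ran from 726 to 2368 CPM in iHSC and from 11.6 to 927 in iMPP, and their part in the difference was not tested.

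After transplantation the list was high from the first collection on. The score was 29.1 in L83, 21.5 in L84 and 48.4 in L87 at day 1 (33.0 ± 13.9, SD, n = 3). It was 27.9, 53.6 and 33.5 in the 3 day 3 libraries (38.4 ± 13.5), 36.8 ± 8.48 at day 5 (n = 7, 23.7 to 48.8) and 36.6 ± 10.3 at day 7 (n = 10, 19.3 to 52.5). Every transplanted library was above every iHSC library, whose highest was 10.2, and the days overlapped one another and the iMPP gates. Cells above 20 per 10000 made up 39.3% at day 1 (24 of 61), 53.6% at day 3, 62.2% at day 5 and 62.5% at day 7. The median cell scored 10.7, 22.8, 26.1 and 31.3 on these days. The share of cells with 10 or more list genes averaged 61.3%, 94.7%, 97.9% and 96.2%, and after thinning to 20000 counts 47.01%, 65.8%, 79.8% and 73.9%. Cells at day 1 were the shallowest, with a median of 109047 counts against 273612 at day 7. L87, the only marrow day 1 library, held 13 cells, of which 30.8% had 10 list genes.

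**Figure D3:**
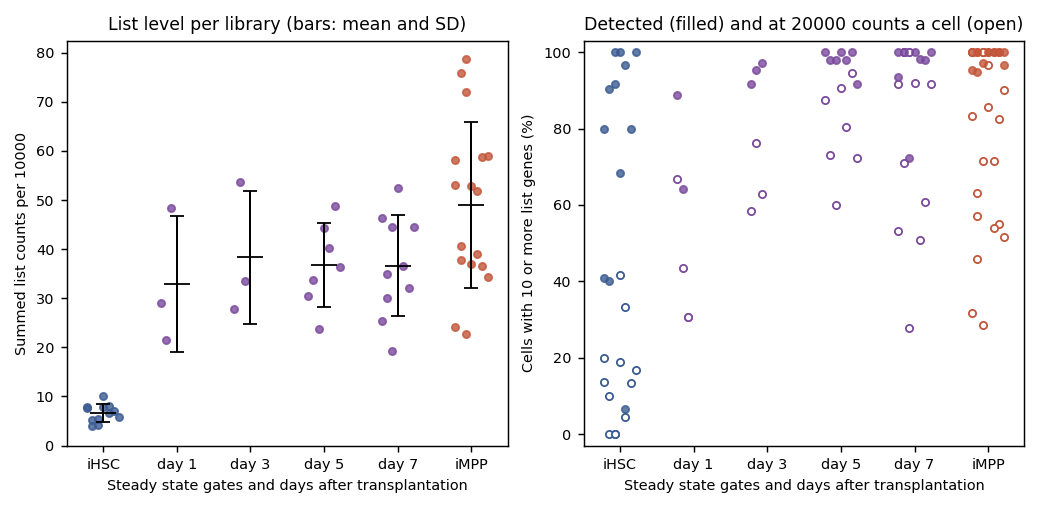
Left, summed list counts per 10000 in each library (points; bars show mean and SD) for the iHSC gates, the iMPP gates and 4 collection days. Right, percent of cells with 10 or more list genes as deposited (filled) and after thinning each cell to 20000 counts (open). All transplanted libraries lie above the highest iHSC library, and iHSC gates drop from 74.6% to 14.3% on thinning.

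Against the iHSC gates, edgeR called 29 of 40 members higher at day 1 (2.34% of 13353 genes), 30 at day 3 (1.01%), 34 at day 5 (4.28%) and 36 at day 7 (10.4%), and none lower. Median member log2 changes were 2.53, 2.86, 2.61 and 3.09, while those of all genes lay between -0.26 and -0.10. These 4 comparisons share the iHSC libraries, so their results are not independent of one another. Every library was above every iHSC library for 12 members at day 1, 21 at day 3, 12 at day 5 and 12 at day 7. How many of all genes do so was not counted, so these counts have no background to be read against. Separation is also easier with fewer libraries, so they cannot be compared between days. Calls at the early days rest on few libraries: day 1 had 11 without L87, and day 3 had 11 without L85. With the day and iHSC alone in the fit, 4 members were called at day 1 and 8 at day 3, and limma voom with the library block called 9 at day 1.

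Kinetochore and centromere members were called for 5 of 7 at day 1, 4 at day 3, 5 at day 5 and 6 at day 7. Cenpe, the kinetochore motor that moves chromosomes to the spindle equator, lay between 0 and 17.8 CPM in iHSC (median 4.29). It had 42.2 in L79, 153 in L85 and 46.2 in L89 at day 3, 56.2 to 99.7 at day 5 (median 79.4) and 21.3 to 141 at day 7 (median 109). No transplanted library overlapped the iHSC range, and the change was 3.84 ± 0.56 at day 3, 3.77 ± 0.48 at day 5 and 4.13 ± 0.47 at day 7 (edgeR adjusted p = 9.84e-08). Cenpf, which coats the outer kinetochore, changed by 3.84 ± 0.59 at day 3. Spc25, a subunit of the Ndc80 complex, did not pass on any day: it lay at 3.56 to 125 CPM in iHSC (median 25.5) and 28.8 to 136 at day 7 (median 86.9), with a change of 1.01 ± 0.46 (adjusted p = 0.111). Its partner Spc24 rose at day 7 by 2.41 ± 0.40.

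Of the 6 checkpoint and cohesion members, 4, 4, 5 and 5 were called on the successive days. Bub1b had 38.7, 11.3 and 5.41 CPM in L83, L84 and L87 at day 1, and 35.3, 101 and 40.5 in L79, L85 and L89 at day 3. Day 5 libraries lay between 24.8 and 84.2 (median 41.1) and day 7 libraries between 9.62 and 176 (median 54.8). L87 alone fell into the iHSC range of 1.49 to 6.81. The log2 change was 4.12 ± 0.51 at day 3 (adjusted p = 6.02e-06), 3.83 ± 0.44 at day 5 and 4.27 ± 0.43 at day 7 (adjusted p = 1.22e-08). Sgol1 was at 70.8, 28.8 and 102.9 CPM at day 1, all above the iHSC maximum of 7.40, with a change of 4.05 ± 0.56. Bub1 changed by 4.26 ± 0.69 at day 1. Bub3 did not pass at any day. It read 147, 155 and 153 CPM at day 1 and 108 to 241 at day 7 (median 176), within or near the iHSC range of 51.6 to 213, and its change was 0.41 ± 0.33, 0.70 ± 0.32, 0.44 ± 0.25 and 0.57 ± 0.22 (adjusted p = 0.0624 at day 7).

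All 4 subunits of the chromosomal passenger complex, Aurkb, Birc5, Incenp and Cdca8, were called on each day. Birc5 had 191, 347 and 229 CPM in the day 3 libraries, 67.5 to 383 at day 5 (median 256) and 217 to 537 at day 7 (median 339), against 5.36 to 102 in iHSC (median 26.1). Day 7 was clear of iHSC, with a change of 3.26 ± 0.38 (adjusted p = 2.00e-07), and day 5 overlapped it in part. Cyclins, entry kinases and Cdca3 were called for 4 of 7 at day 1 and all 7 from day 3 on. Ccnb2 was uneven at day 1, at 166, 12.6 and 402 CPM in L83, L84 and L87, so that L84 lay at the iHSC median of 13.1. At day 7 it lay between 163 and 445 CPM (median 235), above all iHSC libraries, with a change of 3.57 ± 0.44. Cdk1 was even at day 1, at 222, 180 and 231 CPM, above the iHSC maximum of 97.3. Plk1, Ccna2 and Cdca3 were not called at day 1.

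Both partners of the anaphase promoting complex, Cdc20 and Ube2c, were called on every day. Ube2c read 152, 32.8 and 889 CPM in L83, L84 and L87 at day 1 and 79.8, 414 and 183 in L79, L85 and L89 at day 3, against 2.43 to 48.6 in iHSC. At day 7 it ran from 21.6 to 576 (median 245), overlapping iHSC at its low end, with a change of 3.49 ± 0.51. Spindle assembly members were called for 6, 5, 6 and 7 of 7 on the successive days. Hmmr, a microtubule-binding protein of spindle poles, changed by 4.54 ± 0.60 at day 3 and 4.09 ± 0.51 at day 7, and Tpx2, which activates Aurka on the spindle, by 3.82 ± 0.54 and 3.50 ± 0.45. Aspm had the largest change at day 7, 4.66 ± 0.62, from 0 to 4.55 CPM in iHSC to 8.26 to 61.7. Nusap1 passed at day 7 alone (1.58 ± 0.58, adjusted p = 0.0462).

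Central spindle and cytokinesis members gave the fewest calls, 2, 2, 3 and 3 of 5. Prc1 and Racgap1 were called on each day. Kif23, the kinesin of centralspindlin, was at 2.65 to 73.3 CPM in iHSC (median 29.9) and 11.8 to 71.4 at day 7 (median 49.4), with a change of 0.61 ± 0.41 (adjusted p = 0.305). Kif20a was at 0 in 5 of 12 iHSC libraries and never above 8.60 CPM on any day, with changes of 0.57 ± 1.24, 0.25 ± 1.24, 0.90 ± 0.91 and 0.17 ± 0.84. Both mitotic chromosome genes rose on every day, Top2a, the enzyme that untangles sister chromatids, by 2.66 ± 0.42 and Mki67, which coats mitotic chromosomes, by 2.65 ± 0.45 at day 7.

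**Figure D4:**
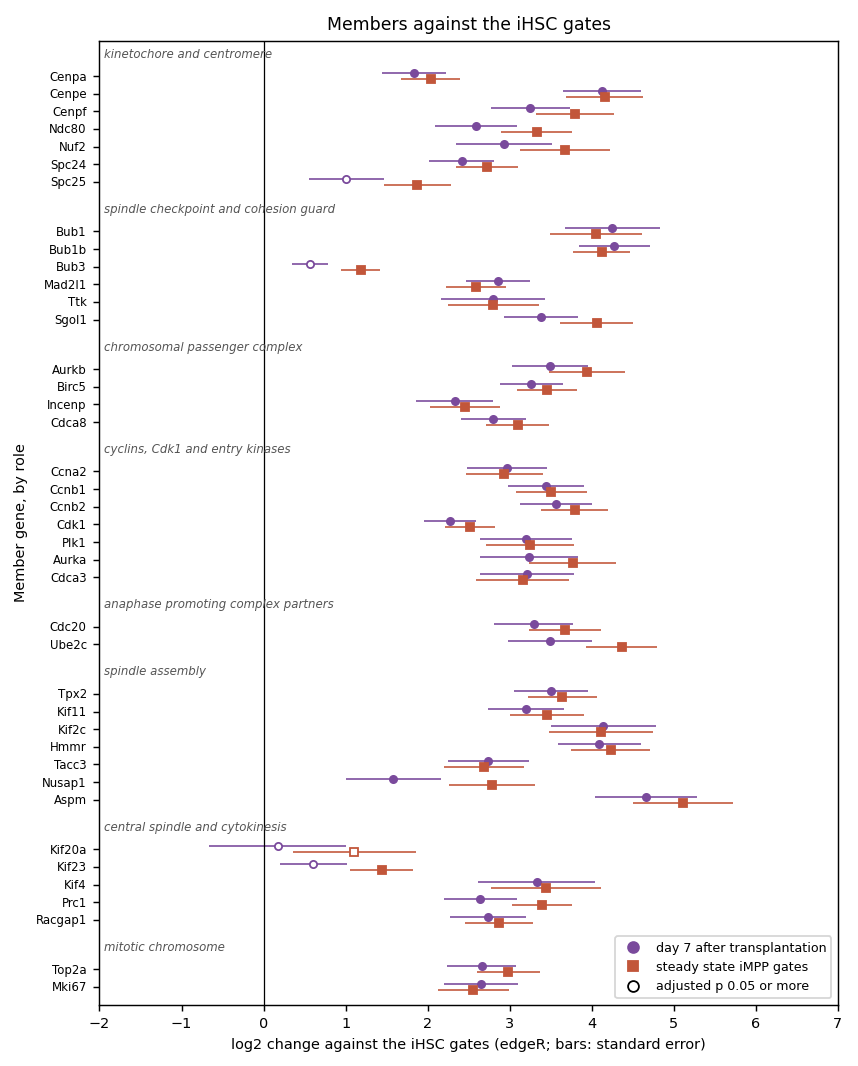
log2 change of each member against the iHSC gates, grouped by role, at day 7 after transplantation (circles) and in the steady state iMPP gates (squares), with standard errors. Open symbols did not pass an adjusted p of 0.05: Spc25, Bub3, Kif20a and Kif23 at day 7, and Kif20a in iMPP.

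From day to day no member was called. Day 3 against day 1 had 0 of 40 (0% of all genes), with 1 at an unadjusted p under 0.05, and day 5 against day 3 had 0 (0%), with 0 unadjusted. Day 7 against day 5 had 0 (0.404%), with 0 unadjusted, a median log2 change of 0.30 and 34 of 40 members positive. DESeq2 also called 0 in each of these. Summed mature neutrophil markers ran from 2287 to 136771 CPM at day 1, 1.08 to 26529 in iHSC and 3.25 to 35401 at day 7, and summed HSC markers from 0 to 1740, 726 to 2368 and 45.5 to 502. Their part in the results was not tested. With tHSC and tMPP cells alone, 9 members were called at day 1.

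Against the steady state progenitors, transplanted cells were a little lower in a few members. At day 7, 3 of 40 were called lower (2.33% of 13740 genes), with 10 at an unadjusted p under 0.05 and a median log2 change of -0.29. Spc25 lay between 82.2 and 298 CPM in iMPP (median 153) and 28.6 to 132 at day 7 (median 87.3), overlapping, with a change of -0.92 ± 0.25 (edgeR adjusted p = 0.0202). Nusap1, which stabilises spindle microtubules around chromosomes, had a change of -1.26 ± 0.36 and Bub3 one of -0.67 ± 0.20, from a median of 252 CPM in iMPP to 174. At day 5, 2 were called lower (0.655%), Spc25 (-1.16 ± 0.29) and Bub3 (-0.79 ± 0.22, adjusted p = 0.0497), with a median of -0.64 and 20 members at an unadjusted p under 0.05. No member separated the libraries of the groups without overlap. The day 7 count was 5 with DESeq2, 1 without L49 and L55 and 0 where sums of fewer than 10 cells were dropped. The day 5 count was 0 without the spleen-only libraries L66, L68, L69 and L70.

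The authors' annotation also assigns each cell a type predicted from its expression, written tHSC, tMPP and so on. Since types were made from expression, differences between types are described without a test. Steady state tHSC1 and tHSC2 scored 6.14 ± 1.93 (n = 6) and 5.69 ± 0.74 (n = 4), near tMPP1 at 7.20 ± 1.54 (n = 5), while tHSC3 stood higher at 17.9 in its 1 library. Then came tMPP4 at 17.3 ± 9.70 (n = 8), tMPP3 at 52.7 ± 9.49 (n = 4), tMPP2 at 72.04 ± 15.5 (n = 8) and tMPP5 at 102.7 ± 25.6 (n = 5). The highest of all was tME2, at 307 ± 126 (n = 3). In transplanted cells tMPP1 scored 10.6 ± 6.00 (n = 13), tMPP4 11.5 ± 7.48 (n = 4), tMPP3 44.4 ± 4.15 (n = 5), tMPP2 50.95 ± 13.7 (n = 18) and tMPP5 46.7 ± 12.3 (n = 12), so the low and high types were the same in both origins. By day, tMPP2 cells scored 63.7 ± 20.2 at day 3 (n = 3), 47.4 ± 5.49 at day 5 (n = 6) and 42.6 ± 6.74 at day 7 (n = 5), and 1 day 1 library 35.8. tMPP1 cells scored 13.2 ± 8.42 at day 3 (n = 3, at 8.30, 8.41 and 22.9) and 8.41 ± 1.92 at day 5 (n = 6). For tMPP1, 1 day 1 library stood at 6.33 and 1 day 7 library at 9.27. tMPP5 scored 49.9 ± 15.8 at day 5 and 46.4 ± 8.03 at day 7, and tMPP3 45.0 ± 4.52 at day 7. Cells of tME at day 7 were low, at 5.34 ± 1.99 (n = 3), but transplanted tME cells were tME1 (50 cells) and tME3 (2 cells) with no tME2, the type that was highest in steady state. Steady state tME1 cells scored 24.9 ± 20.9 (n = 4) and transplanted ones 6.27 ± 2.48 (n = 4). Day 7 tGM cells were uneven, at 38.4 ± 33.9 (n = 5).

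**Figure D5:**
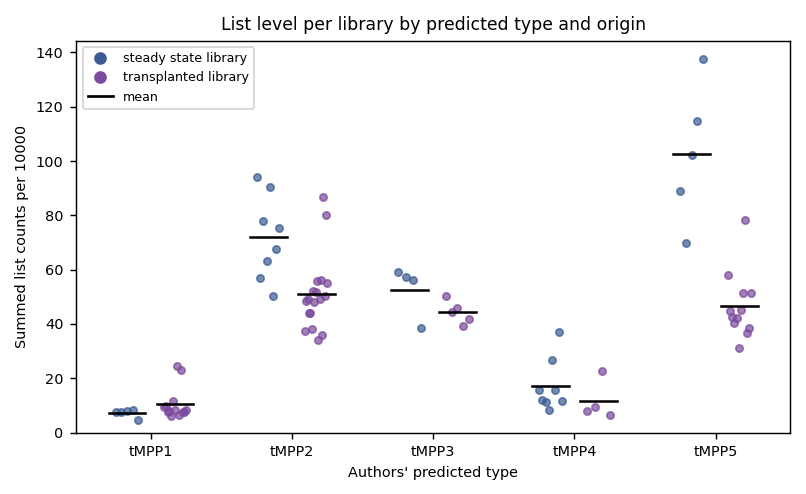
Summed list counts per 10000 in each library (points; line, mean) for the authors' predicted types tMPP1 to tMPP5, steady state and transplanted. Low types (tMPP1, tMPP4) and high types (tMPP2, tMPP3, tMPP5) are the same in both origins, and tMPP5 shows the widest gap, 102.7 in steady state and 46.7 after transplantation.

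Within a predicted type, transplanted and steady state cells were compared by edgeR. In tMPP1 no member of 37 tested was called (0.494% of all genes), with 5 at an unadjusted p under 0.05 and 2 called by DESeq2. In tMPP2 none of 40 was called (0.707%), with 15 unadjusted, a median log2 change of -0.40, 2 called by limma voom and 0 by DESeq2. In tMPP3, also added after the data were seen, none was called (0.0951%), with 5 unadjusted, a median of -0.36, 0 called by DESeq2 and 1 called without L66.

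The tMPP5 comparison was added after its list level had been seen. Its values are therefore a description, with no test, and the count past the threshold restates the difference that led to it. In that fit 21 of 40 members were past the threshold and lower in transplanted cells, where 2.09% of 10219 genes were, and the median log2 difference was -1.21. Summed levels were 88.98, 69.99, 102.1, 115 and 138 in the steady state libraries L16, L4, L40, L50 and L52. They were 31.0 to 58.1 in the transplanted ones apart from the marrow-only L72 at 78.1. Spc25 had 195 to 605 CPM in the 5 steady state libraries (median 272) and 29.9 to 143 in the 12 transplanted ones (median 56.8), without overlap, and a change of -2.17 ± 0.34. Bub3 was also clear, 264 to 515 CPM against 69.6 to 236, with -1.28 ± 0.24. Birc5 overlapped slightly, 630 to 1231 CPM against 248 to 646, with -1.21 ± 0.20. Aurka, the spindle pole kinase, had a change of -2.16 ± 0.42 and Prc1 one of -1.92 ± 0.33.

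By role, 5 of 7 kinetochore members, all 4 passenger complex subunits, 4 of 7 cyclins, entry kinases and Cdca3, both partners of the anaphase promoting complex, 3 of 7 spindle assembly members, 2 of 5 central spindle members and 1 of 6 checkpoint members made up the 21, with neither mitotic chromosome gene. Bub1b overlapped: it had 53.5 to 119 CPM in steady state and 20.3 to 142 after transplantation, with -0.38 ± 0.35. Bub1 was also within its spread (-0.29 ± 0.37). Marker sums differed too: HSC markers averaged 291 CPM in steady state and 835 in transplanted tMPP5 cells, neutrophil and monocyte precursor markers 3063 and 521, and summed replication genes 3151 and 4182. Their part in the difference was not tested. Between 15 and 21 members were past the threshold when 1 steady state library was left out, and 10 where sums of fewer than 10 cells were dropped.

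Related genes outside the 40 were counted from lists of the same biology, chosen with earlier results of these data known. Their counts are a description and not separate evidence. Of 72 tested other mitosis genes, 14, 24, 39 and 53 rose against iHSC at days 1, 3, 5 and 7, and 53 of 70 in iMPP. At day 7 these included the centromere gene Cenpp (4.15 ± 0.53), the cytokinesis exchange factor Ect2 (4.07 ± 0.53) and the kinesin Kif15 (3.17 ± 0.43). Of 8 condensin genes, 4, 2, 6 and 7 rose on these days, and 6 in iMPP, Ncapg by 4.04 ± 0.73 at day 7. Of 14 subunits of the anaphase promoting complex itself, none rose before day 7, where Anapc16 rose by 0.94 and Anapc11 fell by 0.71. Of all 13353 genes, 1394 rose and 1390 fell at day 7, so 1 subunit each way is not above those shares. No subunit was called in iMPP, and the median at day 7 was 0.08, while the partners Cdc20 and Ube2c rose. Of 27 replication and G1/S genes, 3, 5, 21 and 23 rose on the successive days and 18 in iMPP, Lig1 by 1.89 ± 0.30 at day 7. Of 9 brakes and quiescence genes, 1, 2, 2 and 5 fell, and 3 in iMPP, Txnip by 2.43 and Btg2 by 2.84 at day 7. Of all 13353 genes, 107, 14, 439 and 1390 fell on the successive days, and in iMPP 494 of 10461 fell. In the tMPP5 description, 11 of 71 other mitosis genes were past the threshold and lower in transplanted cells, as was no condensin gene, while 3 of 27 replication genes were higher. Of all 10219 genes there, 214 were lower and 118 higher.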

How the data were processed

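The authors deposited whole-number counts per gene and cell, with a cell annotation giving origin, sorted phenotype and predicted type. Per the submitters' processing notes, TopHat, HTSeq and mm10 were used. Whether a count is a read or a molecule is not given in the sources used here. The members and lists were chosen with earlier results of these data known. Within each library, the cells of a group were added up gene by gene where there were at least 5, and the library was the replicate. Sums were fitted with edgeR 4.0.16 (filterByExpr, TMM, quasi-likelihood F test) in R 4.3.3, with Benjamini-Hochberg adjustment over all genes tested and a threshold of 0.05. The standard error is the log2 change divided by the square root of F. DESeq2 1.42.0 and limma 3.58.1 voom were alternatives, as were RLE scaling, no low-count filter, at least 10 cells per sum, the 2 compared sides alone, and leaving out libraries. Leave-one-out fits of gates kept the full fit's gene filter and trended dispersion. For depth, cells were thinned to 20000 counts. The edgeR fits were also run on simulated counts of independent libraries. Those runs covered neither libraries shared between groups nor the fit over all gates. All members are accounted for by role. Named in each comparison are up to 8 called members with the smallest p, Bub3, and up to 4 with the largest p. Likeness is Spearman's rho of the log2 of gate mean CPM over steady state populations. Doublets were not called. Cells without an annotation (578) were left out.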

Additional observations from a re-analysis of the deposited data

Results flagged for a closer look

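Groups of 4 to 10 libraries were checked by Dixon's criterion, once for the summed list level and once for the share of cells with 10 or more list genes. In 5 of these 30 checks, 1 library stood apart from the others. Chance meets the criterion in about 1 in 20 checks of normally distributed values, a rate that does not hold for shares near 100%. At day 5, 91.7% of the 72 cells of L86 had 10 or more list genes, against 97.8% to 100% in the other libraries, at a median of 125202 counts per cell. At day 7, 72.2% of the 36 cells of L78 did, against 93.6% to 100%. Steady state tMPP1 cells of L74 had a summed list level of 4.51 per 10000, below the 7.49 to 8.39 of the others. Steady state tMPP3 cells of L52 had 38.6 per 10000, below 56 to 59. Of the 9 transplanted tGM1 cells in L88, 55.6% had 10 or more list genes, against 95.2% to 100%, at a median of 32274 counts per cell.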

How the results depend on the processing

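By replicate number, no paired analysis was possible because those numbers only name libraries. Within libraries it was possible, and libraries that hold several groups were handled by the voom fit with a library block, which called 40 of 40 members in iMPP against iHSC. That fit could not be estimated for the days against iMPP. The iMPP against iHSC count stayed between 38 and 40 in every alternative run. The counts below moved by more than 1.5 times, and the cause was not tested. Shares of all genes called in the alternative fits are not given here, so these counts have no background beside them. With the compared sides alone in the fit, members called were 4 at day 1, 8 at day 3, 11 among iMPP gates, 6 in ST_HSC, 16 in LMPP, 0 in MPP1, 7 in CMP, 3 in GMP, 6 in MEP, 9 in CLP, 12 in MK, 16 in Granulocyte, 3 in Macrophage, 0 in B cell and 0 in NK cell, or 341 over all gates. With voom, which had a library block except in the predicted types, where no library holds both origins, they were 9 at day 1, 2 in tMPP2, 1 in tMPP3, 14 among iMPP gates, 36 in MPP1, 12 in Fraction II, 14 in MK, 22 in Granulocyte, 2 in B cell and 1 in NK cell. With DESeq2 they were 5 for day 7 against iMPP, 2 in tMPP1, 4 among iHSC gates, 2 in Fraction II, 9 in NK cell, 2 in CD4T and 3 in CD8T. Without a low-count filter they were 6 among iHSC gates, 3 among iMPP gates, 8 in Fraction II, 9 in NK cell, 2 in CD4T and 2 in CD8T. RLE scaling gave 1 for day 5 against iMPP and 2 in CD4T. At least 10 cells per sum gave 0 for day 7 and 0 for day 5 against iMPP, 1 in tMPP3, 10 in tMPP5, 4 in CLP and 1 in CD4T. Without L49 and L55, day 7 against iMPP had 1, Fraction II 1 and MK 7. Without spleen-only libraries, day 5 against iMPP had 0. With tHSC and tMPP cells alone, day 1 had 9.

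Leaving out 1 library gave 11 to 27 at day 1, 11 to 28 at day 3, 0 to 1 in tMPP3, 15 to 21 in tMPP5, 0 to 1 among iHSC gates, 5 to 25 in ST_HSC, 4 to 17 in MPP1, 20 to 33 in MPP3, 6 to 29 in CLP, 6 to 24 in MK, 7 to 28 in Granulocyte, 1 to 3 in B cell, 1 to 5 in NK cell and 0 to 1 in CD8T. The percent of cells with 10 list genes moved on thinning to 14.34 (iHSC), 68.72 (iMPP), 65.79 (day 3), 79.77 (day 5) and 73.9 (day 7), to 96.53 (iMPP) and 82.84 (day 3) with 15 or more genes, and to 98.35 (day 3) with 5 or more. In iHSC it was 53.15 with 15 or more and 89.77 with 5 or more, against 74.55. At day 1 it was 53.28 and 88.03, against 61.25, and 47.44 with libraries of at least 10 cells.

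Signs turned for members near 0. Against iHSC, Kif20a was -0.079 at day 1 with at least 10 cells per sum, -0.22 and -0.042 at day 3 without L79 and L89 (-0.22 to 0.67 over the 3 libraries left out), and -0.037 (RLE) and -0.061 (DESeq2) at day 7. At day 7 against iMPP, Cdca3 was -0.049 with RLE and -0.049 with DESeq2, -0.0068 without a filter and -0.0053 with the sides alone. With at least 10 cells per sum, Kif2c was 0.038, Tacc3 0.11 and Ccna2 0.15, and Tacc3 was 0.12 without L49 and L55. At day 5 against iMPP, Bub1 was 0.18 and Incenp -0.10 with at least 10 cells, and Bub1 0.23 and Kif20a 0.14 without spleen-only libraries. In NK cell, Bub3 was 0.011 (no filter), 0.19 (voom), 0.17 (at least 10 cells) and 0.076 (sides alone), and voom gave 0.31 for Kif2c and -1.11 for Tpx2. In tMPP5, Bub1 was 0.13 without L52, and ran from -0.45 to 0.13 over the steady state libraries left out in turn.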
